A study of Mus musculus with 6 samples.

Results

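The nuclear genes for the proteins of the mitochondrial ribosome were followed in cultured mouse skin cells grown in normal or high glucose. The members were the protein-coding genes whose symbol is Mrpl or Mrps, a number and at most 1 letter a, b or c, with pseudogenes left out. The table of 55487 genes held 78 of them, 49 with a large subunit symbol (Mrpl) and 29 with a small subunit symbol (Mrps), and all 78 passed the filter on low counts. The study compared 3 samples in 5 mmol/L glucose with 3 samples in 20 mmol/L glucose after 48 hours, a comparison that models hyperglycemia. The samples were poly(A) RNA libraries of primary cells labelled endothelial cells (ECs), from the skin of 4 to 6 C57BL/6 mice aged 2 to 3 months, enriched on CD31 beads and, per the methods, used at passages 1 to 6. No other genotype or agent was labelled. The study's legends for these data give n = 3 per group of mice. The labels do not say whether replicates came from separate isolations, so the p-values measure only the spread between these samples.

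Mitochondria keep a ribosome of their own, the mitoribosome, which translates the few membrane proteins of oxidative phosphorylation encoded in mitochondrial DNA (mtDNA). Its ribosomal RNAs are transcribed inside the organelle, while every protein of its large and small subunit is encoded in the nucleus, made in the cytosol and imported. The large subunit forms peptide bonds and passes the new chain through an exit tunnel to the inner membrane, and the small subunit binds the messenger and decodes it. About the same set of proteins is needed in every respiring cell, so these genes are commonly expressed at moderate levels in all tissues.

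The libraries held between 120192466 and 146881356 counts, and the smallest count of any member in any sample was 1235 (Mrpl47), so counting error was small for every member. Several markers of the labelled cell type were scarce. Pecam1, which encodes CD31, had 9 to 19 counts per sample, and Tie1, Emcn and Cldn5 had 0 to 9. Erg had 2 to 15, Esam 12 to 23, Vwf 73 to 144, Cdh5 91 to 242 and Tek 151 to 302. Kdr had 576 to 777, Egfl7 1113 to 1464 and Flt1 4457 to 8030. The summed level of 12 endothelial markers was 73.8 to 77.0 normalized CPM (counts scaled to a common library size, not to gene length) in normal glucose against 57.0 to 57.6 in high glucose, of which Flt1 made up most. Of the 9 endothelial markers that passed the filter on low counts, 3 fell and 2 rose (Tek and Erg), so the sum does not stand for each marker. The summed level of 12 fibroblast markers was 38897 to 42126 CPM in normal glucose against 70938 to 75881 in high glucose, and 9 of the 12 rose while 3 fell. Of 17 proliferation genes, 16 fell, with summed levels of 418 to 426 CPM against 241 to 245. These calls are from the test described below, which called 14.5% of all tested genes lower and 16.9% higher. The summed level of the endothelial markers thus stood far below that of the fibroblast markers. The part of cell makeup and of proliferation in the results that follow was not tested. In such bulk samples fewer cells of a type and less RNA per cell cannot be told apart.

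The promoters of 4 members that were called lower in high glucose (described next) are shown because they differ in the letters they share. They are RefSeq windows on build GRCm38.p6, read 5′ to 3′ on the gene's strand and ending where the transcript begins in RefSeq or in GENCODE, whichever comes first. Capitals mark matches, on either strand, to the letters GCGCANGCG of nuclear respiratory factor 1 (NRF1, an activator of nuclear genes for mitochondrial proteins), CCGGAAG of the ETS family that includes GABP, or GGGCGGGG of SP1. The windows are chr1:37890227-37890476 on the plus strand (Mrpl30), chr11:97315466-97315715 on the plus strand (Mrpl45), chr7:105811100-105811337 on the minus strand (Mrpl17) and chr16:92058086-92058269 on the plus strand (Mrps6).
Mrpl30: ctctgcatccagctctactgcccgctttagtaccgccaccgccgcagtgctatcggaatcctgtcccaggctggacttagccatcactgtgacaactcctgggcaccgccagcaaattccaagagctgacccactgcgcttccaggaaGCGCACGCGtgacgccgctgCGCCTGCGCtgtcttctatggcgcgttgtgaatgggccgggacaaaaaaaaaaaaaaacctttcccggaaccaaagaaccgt
Mrpl45: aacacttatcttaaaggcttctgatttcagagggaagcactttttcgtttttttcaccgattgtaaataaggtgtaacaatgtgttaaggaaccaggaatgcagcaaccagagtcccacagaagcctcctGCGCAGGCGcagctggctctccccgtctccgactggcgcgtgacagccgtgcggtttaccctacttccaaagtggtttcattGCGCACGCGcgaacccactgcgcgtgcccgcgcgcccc
Mrpl17: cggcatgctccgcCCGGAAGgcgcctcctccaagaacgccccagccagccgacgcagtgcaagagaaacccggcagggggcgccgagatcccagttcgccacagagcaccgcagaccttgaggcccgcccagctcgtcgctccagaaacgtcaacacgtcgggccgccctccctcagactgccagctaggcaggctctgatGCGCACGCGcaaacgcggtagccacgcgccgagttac
Mrps6: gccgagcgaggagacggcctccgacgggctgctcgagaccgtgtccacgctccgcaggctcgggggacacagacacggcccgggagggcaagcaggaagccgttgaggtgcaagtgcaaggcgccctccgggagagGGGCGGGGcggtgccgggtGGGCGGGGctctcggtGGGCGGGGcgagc
Mrpl30, Mrpl45 and Mrpl17 held NRF1 letters, Mrpl17 also held the ETS letters near its upstream end, and Mrps6 held 3 copies of the SP1 letters and none of the other motifs.

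Over whole windows of 300 bases (250 before to 50 after the start), 75 RefSeq promoters of 69 members were available, and 9 members had no entry (Mrpl4, Mrpl13, Mrpl15, Mrpl19, Mrpl38, Mrpl54, Mrps28, Mrps34 and Mrps35). The NRF1 letters were in 16 of the 75 member promoters (21.3%) and in 6.25% of all 32851 promoters. The ETS letters were in 26 (34.7%) and in 8.86% of all. The letters AAGATGGCG of YY1, another regulator of mitochondrial genes, were in 8 (10.7%) and in 1.4% of all. TATAAA was in 5 member promoters (6.67%, against 13.6% of all), CCAAT in 30 (40%, against 37.4%) and GGGCGGGG in 18 (24%, against 17.6%). Matches to different motifs overlapped in 0 of the 75. At least 1 of the NRF1, ETS and YY1 motifs was in 42 member promoters (56%) and in 14.8% of all. Among members with an entry, 3 of the 4 called lower and 13 of the other 65 held the NRF1 letters. The 4 were picked by their calls in these data, and Mrpl19 and Mrpl54, also called lower, had no entry. Whether the shares differ was not tested. All motif counts here are matches of letters, with no binding measured.

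Most mitoribosomal protein genes differed little between the glucose levels. In edgeR's quasi-likelihood test, with adjusted p under 0.05 over 19015 genes, 6 of 78 members were called lower in high glucose and 0 were called higher. Over all tested genes the same test called 14.5% lower and 16.9% higher. The members were not called above that background in either direction, so the number of calls is no result about them as a group. DESeq2 called 8 members lower and 0 higher (15.7% lower over all genes it tested). At an unadjusted p under 0.05, 11 members were lower and 1 was higher, against 19.8% and 22.5% of all tested genes. The called members were Mrpl30, Mrpl45, Mrpl17, Mrpl19 and Mrpl54 of the large subunit (5 of 49, 0 higher) and Mrps6 of the small subunit (1 of 29, 0 higher). Member log2 fold changes ran from -0.29 to 0.15, with a median standard error (SE) of 0.071. Their median was -0.053, against 0.0062 over all tested genes, and 58 lay below 0 and 20 above. The median size of the log2 fold change, whatever its sign, was 0.069 for the members, 0.20 for all tested genes and 0.14 for the 5657 tested genes within the members' range of mean CPM.

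**Figure D1:**
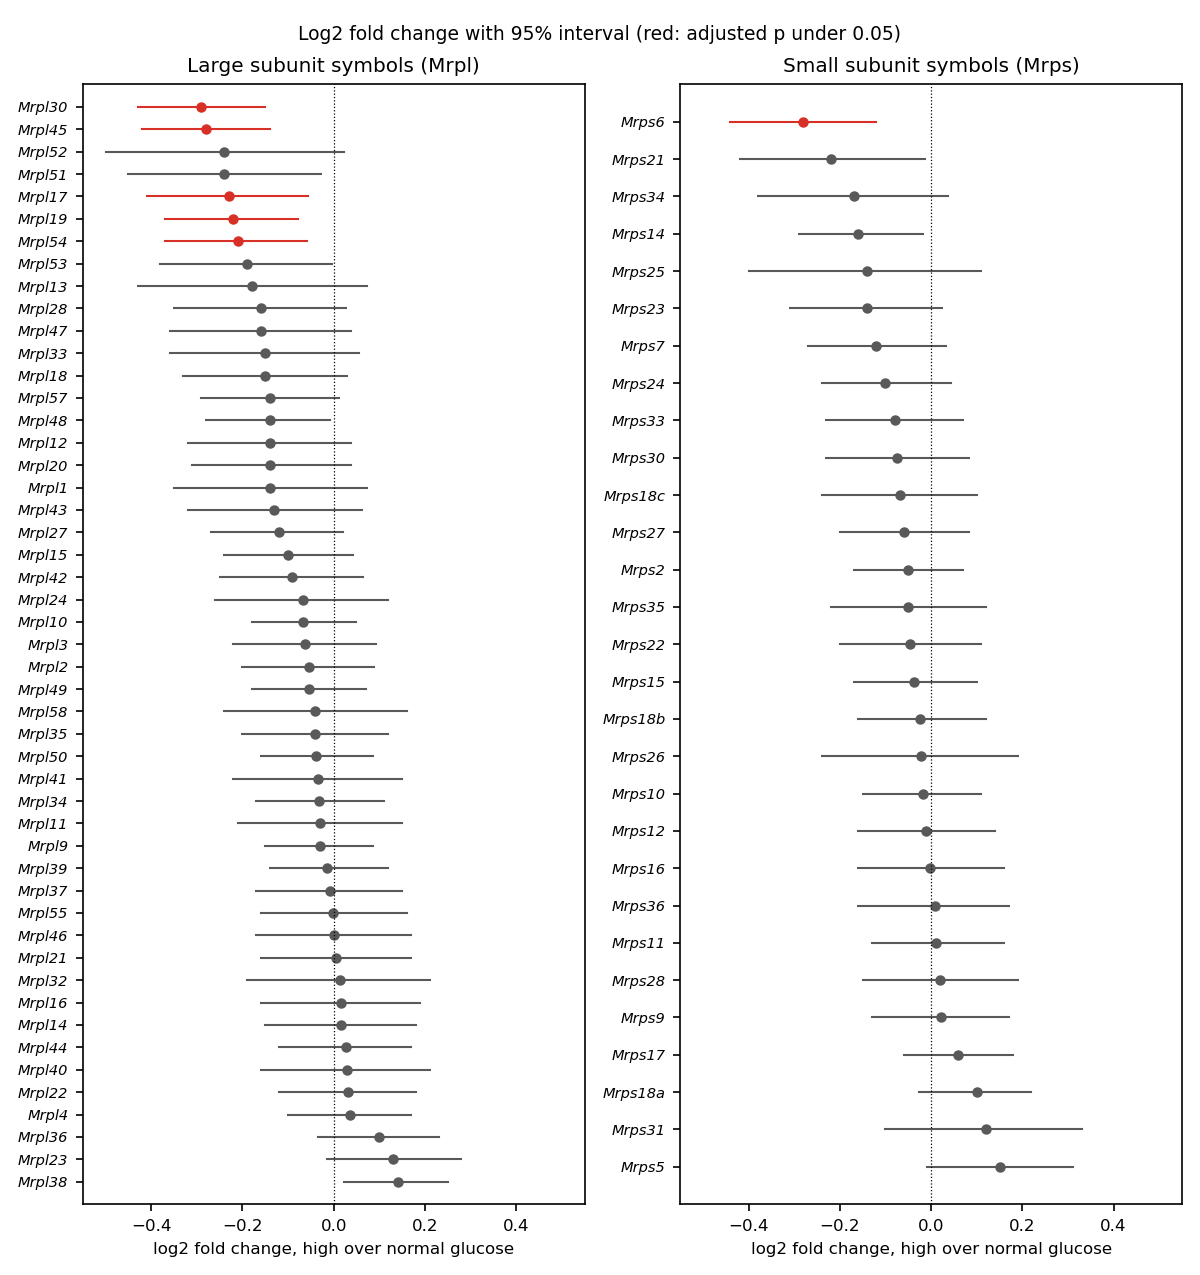
Log2 fold change of each of the 78 members (x axis, high over normal glucose) with its 95% interval, large subunit symbols on the left panel and small subunit symbols on the right. Red marks the 6 members called at adjusted p under 0.05, all left of 0, and the other 72 are grey.

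The large and small subunit genes had similar medians. The median log2 fold change was -0.064 over the 49 Mrpl genes and -0.046 over the 29 Mrps genes. Relative to the median of all tested genes these were -0.07 and -0.052. The ratio of summed large to summed small subunit CPM was 1.91, 1.88 and 1.87 in the normal glucose samples and 1.84, 1.87 and 1.86 in the high glucose samples, so the groups met at 1.87. For the 72 members not called, the 95% interval lay within 1.5-fold in either direction for all 72 and within 1.25-fold for 58. The widest reached down to -0.50 (Mrpl52) and up to 0.33 (Mrps31) on the log2 scale.

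Mrpl30, a protein with a bacterial counterpart (chromosome 1, 37890477 to 37898535, GRCm38), had the largest fall. Its level was 40.5, 36.2 and 36.0 CPM in normal glucose against 29.8, 30.7 and 31.7 in high glucose, so all 3 high glucose samples lay below all 3 normal ones. The log2 fold change was -0.29 (SE 0.061, edgeR adjusted p = 0.00485), or -18.2%. Mrpl45, the protein at the tunnel exit through which the mitoribosome is held to the inner membrane (chromosome 11, 97315716 to 97329920), stood at 33.2, 29.4 and 31.0 CPM against 24.9, 27.2 and 24.9. Its log2 fold change was -0.28 (SE 0.063, edgeR adjusted p = 0.00696). Mrps6, a small subunit protein with a bacterial counterpart (chromosome 16, 92058270 to 92112227), was at 40.3, 33.1 and 35.2 CPM against 29.1, 30.7 and 29.6. Its log2 fold change was -0.28 (SE 0.073, edgeR adjusted p = 0.0147), and the groups did not overlap.

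The other called members were closer to the threshold. Mrpl17, another protein near the tunnel exit (chromosome 7, 105803206 to 105811099), had the highest count of any member (8125 in a normal glucose sample). It was at 64.9, 51.6 and 56.9 CPM in normal glucose against 49.4, 51.0 and 47.4 in high glucose, groups that stood apart by less than 1 CPM, with a log2 fold change of -0.23 (SE 0.078, edgeR adjusted p = 0.0465). Mrpl19, with a bacterial counterpart (chromosome 6, 81957851 to 81965958), was at 19.7, 18.3 and 18.0 CPM against 15.0, 16.9 and 16.1. Its log2 fold change was -0.22 (SE 0.066, edgeR adjusted p = 0.0257), and its exons share 1962 bases with Gcfc2 on the opposite strand, whose reads may not have been told apart. Mrpl54, found only in mitochondrial ribosomes (chromosome 10, 81264713 to 81266934), was at 17.9, 15.2 and 16.8 CPM against 14.5, 14.2 and 14.4, with a log2 fold change of -0.21 (SE 0.07, edgeR adjusted p = 0.0408). Mrpl30 and Mrpl45 were called under each of 19 alternative processings. Mrps6 was called under 17 (not without high glucose replicate 1, nor at adjusted p under 0.01), Mrpl19 under 14, Mrpl54 under 11 and Mrpl17 under 10.

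**Figure D2:**
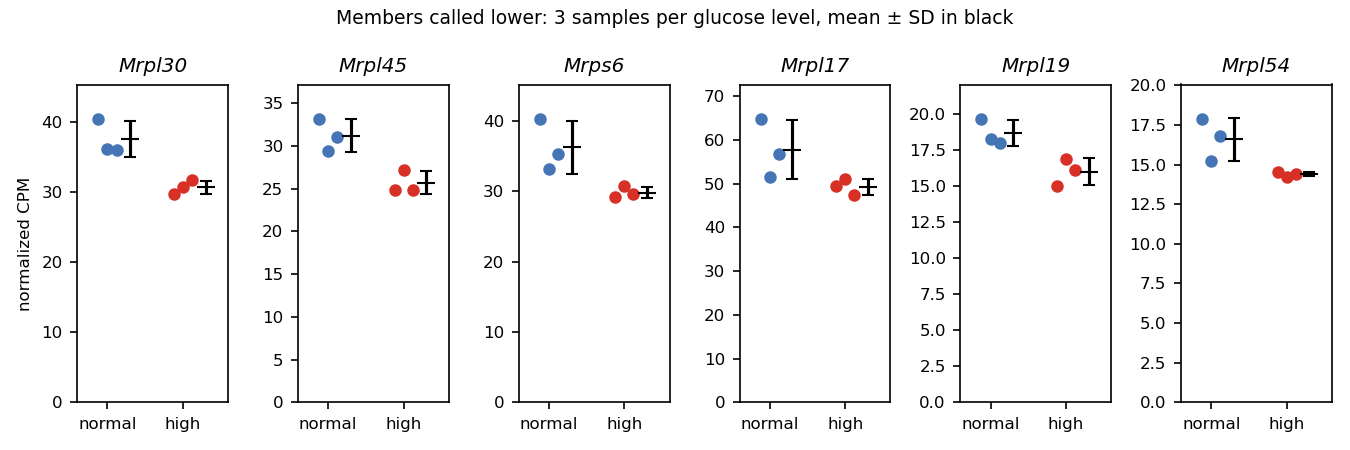
Normalized CPM (y axis, from 0) of the 6 members called lower, with 1 point for each of the 3 normal glucose (blue) and 3 high glucose (red) samples and the mean ± SD in black. In each gene every high glucose point lies below every normal glucose point.

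Groups that did not overlap were also seen in members that were not called. In 8 members all high glucose samples lay below all normal ones (21.3% of tested genes did so), and in 3 all lay above (25.1% of tested genes). Beside the 6 called members, the lower ones were Mrps14 and Mrpl48, and the higher ones were Mrpl23, Mrpl38 and Mrps18a, named after their values were seen. Mrpl38, a protein of the central protuberance, the knob of the large subunit that faces the small one, was at 25.1, 24.1 and 25.6 CPM in normal glucose against 27.6, 27.6 and 26.9 in high glucose. Its log2 fold change was 0.14 (edgeR adjusted p = 0.0677).

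None of the genes placed at the decoding or the catalytic centre was called in the test as reported. Mrps12, the small subunit protein of the decoding centre, was at 11, 10.7 and 11 CPM in normal glucose against 10.8, 11.3 and 10.3 in high glucose, with a log2 fold change of -0.012 (95% interval -0.16 to 0.14). The groups overlapped fully. Mrpl2 and Mrpl3, whose bacterial counterparts lie next to the site of peptide bond formation, had log2 fold changes of -0.055 (-0.20 to 0.088) and -0.064 (-0.22 to 0.093). Of 4 catalytic core members and 5 members on the decoding and messenger path, 0 were called by edgeR, and their medians were -0.059 and -0.012. Over all tested genes 14.5% were called lower and 16.9% higher, so 0 calls among so few genes do not set these sites apart. Mrps5, on the messenger path, had the highest log2 fold change of any member (0.15, edgeR adjusted p = 0.142).

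The stalk that recruits translation factors is made of Mrpl10, Mrpl11 and Mrpl12, and 0 of these 3 were called. Mrpl10 was the member with the highest mean level, at 58.9, 53.9 and 56.4 CPM in normal glucose against 54.6, 53.8 and 53.1 in high glucose. Its log2 fold change was -0.068 (95% interval -0.18 to 0.048). Mrpl12, which also binds the mitochondrial RNA polymerase, was at 35.8, 28.2 and 34.0 CPM against 28.9, 30.0 and 29.9, with overlapping groups and a log2 fold change of -0.14 (-0.32 to 0.037). Mrpl11 had a log2 fold change of -0.03 (-0.21 to 0.15). Around the tunnel exit 2 of 8 members were lower, Mrpl17 and Mrpl45, with a median of -0.041 for the 8. Over all tested genes 14.5% were called lower. The sites were assigned after the values were seen and hold few genes, so counts by site are no result about a site. In the central protuberance 0 of 6 were called and the median was -0.021. One of those is Mrpl58, a peptidyl-tRNA hydrolase that frees chains from stalled ribosomes, at 21.0, 16.1 and 19.5 CPM against 18.3, 18.9 and 17.7 and a log2 fold change of -0.042 (-0.24 to 0.16).

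Proteins inherited from the bacterial ribosome and those found only in mitochondria gave similar values. The median log2 fold change was -0.053 over 46 members with a bacterial counterpart (4 lower, 0 higher) and -0.055 over 31 without one (2 lower, 0 higher). The share called lower over all tested genes was 14.5%, so these counts are no result about either origin. The 3 paralogues Mrps18a, Mrps18b and Mrps18c carry the Mrps18 symbol. Mrps18c, the counterpart of bacterial S18, had a log2 fold change of -0.069 (95% interval -0.24 to 0.10), and Mrps18b, also of the small subunit, had -0.024 (-0.16 to 0.12). Mrps18a, which sits in the large subunit of the mammalian mitoribosome, was at 21.8, 20.6 and 22.5 CPM in normal glucose against 22.9, 22.8 and 23.7 in high glucose. Those groups did not overlap, but the log2 fold change of 0.10 (-0.027 to 0.22) was not called (edgeR adjusted p = 0.217). Mrps30, also placed in the large subunit despite its symbol, had -0.074 (-0.23 to 0.084). Mrps36, now assigned to the 2-oxoglutarate dehydrogenase complex and not to the ribosome, had 0.0093 (-0.16 to 0.17). With these genes placed by structure, the calls remained 5 of 51 large and 1 of 26 small subunit members lower.

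Levels per exon length covered a 34.8-fold range over the members, with a median of 9.4 CPM per exon kilobase over the 6 samples. The highest were Mrps21 (45.4), Mrpl34 (34.8) and Mrpl10 (32.3), and the lowest were Mrps35 (1.3), Mrpl48 (1.73) and Mrps10 (2.48). The exon length is that of all annotated exons joined, which is 739 bases for Mrps21 and 8631 for Mrps35, so long rarely used exons lower the value. Mrps21, a small subunit protein, was at 41.4, 30.7 and 36.2 CPM in normal glucose against 30.5, 31.8 and 30.8 in high glucose, with overlapping groups and a log2 fold change of -0.22 (edgeR adjusted p = 0.0967). Across the 78 members the log2 fold change and the mean CPM had a Spearman rho of -0.38, and the log2 fold change and exon length one of 0.001. The log2 fold change and the log2 ratio of normal glucose replicate 1 to replicate 2 had one of -0.45, and both of those measures use these same samples. All 3 are descriptions over genes that share the same 6 libraries.

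The normal glucose samples differed among themselves more than the groups did. The summed level of the 78 members was 2076, 1764 and 1902 CPM in normal glucose replicates 1, 2 and 3 and 1772, 1839 and 1815 CPM in high glucose, so the groups overlapped (1914 ± 156 against 1809 ± 33.7, SD, n = 3). Replicate 1 of normal glucose was the highest sample for 56 of 78 members and for 25.5% of all tested genes. Replicate 2 of normal glucose was the lowest for 36 members and for 17.1% of all tested genes. The median coefficient of variation of a member was 7.8% in normal and 3.6% in high glucose, and 63 of 78 members (80.8%) varied more in normal glucose. In the tested genes of the members' CPM range these were 6.06%, 3.47% and 74.8%.

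**Figure D3:**
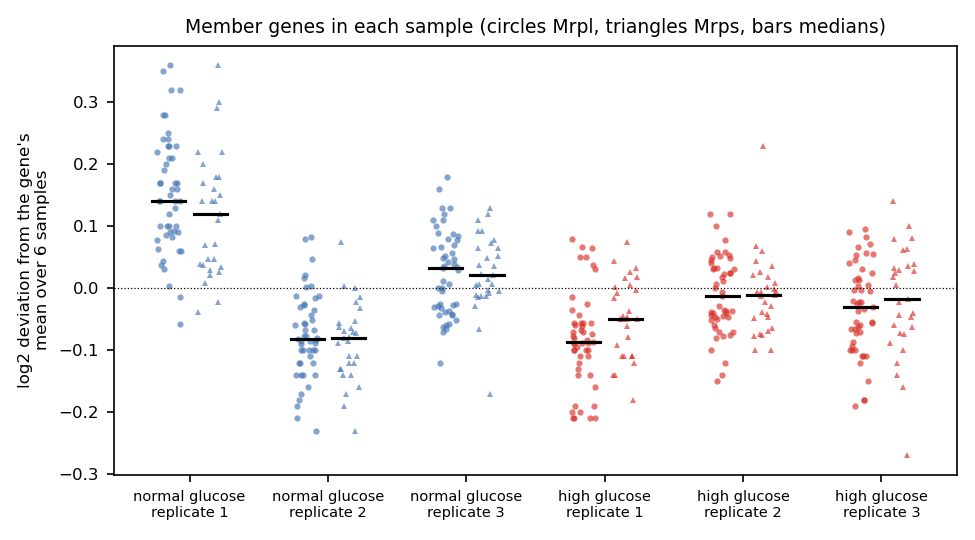
Log2 deviation of each member from its own mean over the 6 samples (y axis), by sample (x axis), circles for Mrpl and triangles for Mrps, with the median of each subunit as a bar. Over all 78 members the median was 0.14, -0.081 and 0.026 in normal glucose replicates 1, 2 and 3 and between -0.072 and -0.012 in the high glucose samples.

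The number of calls depended on which normal glucose sample was kept. Without normal glucose replicate 2, edgeR called 21 members lower and 0 higher (15.9% of all tested genes were lower), and the median log2 fold change was -0.12. Without normal glucose replicate 1, it called 5 lower and 2 higher (15.7% and 15.8% of tested genes), with a median of -0.021. The 2 higher members there were Mrps5 (0.21, edgeR adjusted p = 0.012) and Mrpl23, a tunnel exit protein (0.17, edgeR adjusted p = 0.048), named after their values were seen. Without high glucose replicate 1 it called 2 lower (10.8% of tested genes) and without high glucose replicate 3 it called 3 (10.6%). Scaling to library size alone gave 30 lower and 0 higher (25.7% of tested genes were lower), and it moved the median of all tested genes to -0.11 and that of the members to -0.17. Relative to the median of all tested genes the members stood at -0.059 under this scaling and under the other 3 scalings.

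The rest of the mitochondrial translation apparatus was read from lists of genes by role. Of 5 mitoribosomal proteins with other symbols (Dap3, Ptcd3, Chchd1, Aurkaip1 and Gadd45gip1), 1 fell and 0 rose (14.5% of all tested genes were called lower). Ptcd3, a small subunit protein, was at 33.3, 32.6 and 30.0 CPM in normal glucose against 26.7, 29.6 and 27.5 in high glucose, with a log2 fold change of -0.20 (edgeR adjusted p = 0.0364). This call was lost without normal glucose replicate 2, high glucose replicate 1 or high glucose replicate 3. Of 15 translation factors, which start, extend and end the chains or stabilize messengers, 0 were called by edgeR in either direction, while 2 were lower and 2 higher at an unadjusted p under 0.05, and DESeq2 also called 0. Their median log2 fold change was -0.0082. Tufm, the elongation factor that brings charged tRNAs, was at 78.6, 70.0 and 75.2 CPM against 68.3, 67.7 and 71.7, with overlapping groups.

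Of 26 assembly factors 4 rose and 0 fell, and of 20 genes that charge mitochondrial tRNAs 3 rose and 0 fell. Over all tested genes 16.9% were called higher, so neither count stands above the background and neither is a result about its list. The assembly factors that rose were the RNA helicases Dhx30 (log2 fold change 0.26, edgeR adjusted p = 0.0106) and Ddx28 (0.17, 0.0492), the GTPase Mtg2 (0.26, 0.0251) and Rcc1l (0.22, 0.0459), all known to act in maturation of the large subunit. Dhx30 was at 49.0, 51.1 and 55.5 CPM in normal glucose against 64.2, 58.3 and 64.3 in high glucose, with no overlap. The synthetases that rose were Tars2 (0.24, edgeR adjusted p = 0.0123), Vars2 (0.20, 0.0163) and Lars2 (0.24, 0.0387). The Lars2 groups overlapped, at 121, 122 and 129 CPM in normal glucose against 148, 162 and 129 in high glucose. Tars2, which charges threonine tRNA, was at 19.7, 17.6 and 18.2 CPM against 21.5, 22 and 21.8. The median log2 fold change was 0.036 for the assembly factors and 0.11 for the synthetases. Relative to the median of all tested genes these were 0.03 and 0.10 under each of the 4 scalings, while the unadjusted medians fell below 0 where a scaling lowered every gene (-0.078 and -0.0048 under library size scaling). The scalings other than TMM gave 0 to 2 higher and 1 to 4 lower calls among the assembly factors, and library size scaling gave 0 higher calls among the synthetases. Leaving out 1 sample gave 0 to 3 higher calls in each list, with 0 in both without high glucose replicate 1.

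**Figure D4:**
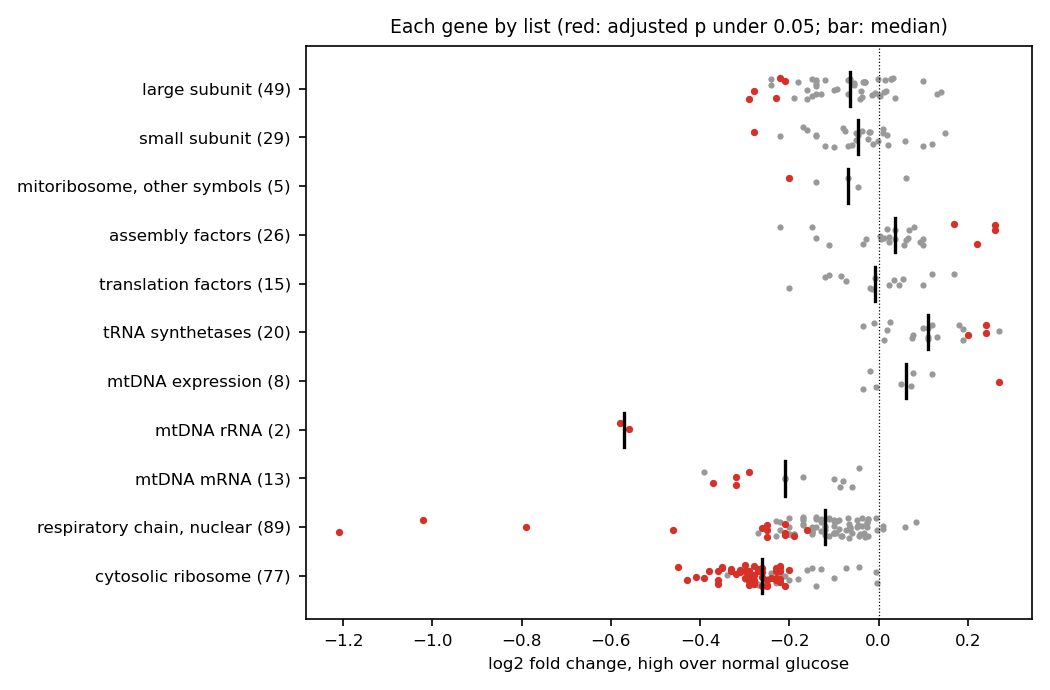
Log2 fold change of each tested gene (x axis, high over normal glucose) by list, with the number of genes in brackets, red for adjusted p under 0.05 and a bar at the median. The mitoribosomal proteins sit near 0 (medians -0.064 and -0.046), the mtDNA ribosomal RNAs at -0.57 and the cytosolic ribosomal proteins at -0.26.

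The RNA partners of these proteins were lower. mt-Rnr1, the RNA of the small subunit, was at 104, 86.0 and 73.7 CPM in normal glucose against 50.9, 72.3 and 55.5 in high glucose, with a log2 fold change of -0.56 (SE 0.14, edgeR adjusted p = 0.0122). mt-Rnr2, the RNA of the large subunit, was at 444, 376 and 309 CPM against 218, 305 and 234, with a log2 fold change of -0.58 (SE 0.14, edgeR adjusted p = 0.0109). In each the highest high glucose sample lay just under the lowest normal one. Both calls were lost under robust fitting (adjusted p = 0.0529 and 0.0521). Of the 13 mtDNA messengers that the mitoribosome translates 4 fell and 0 rose: mt-Co2 (log2 fold change -0.37, edgeR adjusted p = 0.029), mt-Nd1 (-0.32, 0.0131), mt-Nd3 (-0.32, 0.0374) and mt-Nd2 (-0.29, 0.0111). Over all tested genes 14.5% were called lower. For mt-Nd3 the groups overlapped, at 52, 48.9 and 38.4 CPM in normal glucose against 34.2, 39.8 and 37.4 in high glucose. The median of the 13 was -0.21, and leaving out 1 sample gave 1 to 5 lower calls, with 1 without high glucose replicate 1 and 2 without high glucose replicate 3. With the trend on GC content and length removed, 0 of the 13 were called lower, while both ribosomal RNAs kept their call (-0.36 and -0.41). With a replicate block also fitted, 0 of the 13 were called lower and 1 was called higher. Poly(A) selection takes up ribosomal RNA only in part, and copies of mtDNA in the nuclear genome share reads with these genes, so their levels are uncertain. Of 8 genes that copy or transcribe mtDNA, 1 rose (Polg, the replicative polymerase, log2 fold change 0.27, edgeR adjusted p = 0.0064), a call lost without high glucose replicate 1. Over all tested genes 16.9% were called higher.

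For comparison, the ribosomal proteins of the cytosol fell far more broadly. Of 77 tested genes 53 were called lower and 0 higher, with a median log2 fold change of -0.26, and their summed level was 25113 to 30785 CPM in normal glucose against 22858 to 23688 in high glucose. Many of them have near-identical processed copies in the genome, which makes single values uncertain. Of 89 nuclear genes picked by symbol for the respiratory chain and ATP synthase, 13 were lower and 0 higher, with a median of -0.12. That count is at the background of 14.5%. Of the 89, 85 log2 fold changes lay below 0 and 4 above. In 26 all high glucose samples lay below all normal ones (21.3% of tested genes), and in 0 all lay above (25.1%). The 89 hold assembly factors (Ndufaf symbols) as well as subunits. Leaving out 1 sample gave 24 to 71 lower calls for the cytosolic ribosomal proteins, 7 to 45 for the 89 genes and 2 to 21 for the 78 mitoribosomal genes.

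Regulators known to act on genes for mitochondrial proteins were mixed. Of 10, 1 fell and 3 rose, where 14.5% of all tested genes were called lower and 16.9% higher. With so few genes these counts do not set the list apart from that background. Nrf1 itself was at 21.6, 21.8 and 20.9 CPM in normal glucose against 22.4, 22.1 and 22.2 in high glucose, with a log2 fold change of 0.054 (edgeR adjusted p = 0.448). The GABP subunits Gabpa (0.0095) and Gabpb1 (-0.082) and Yy1 (0.035) were not called either. Gabpb2, another GABP subunit, rose (0.36, edgeR adjusted p = 0.017), as did the coactivators Pprc1 (0.21, 0.0293) and Ppargc1a (0.72, 0.018), the last from a low level of 0.607, 0.966 and 0.648 CPM to 1.27, 1.03 and 1.37. Myc, a growth regulator that also acts on ribosomal genes, fell (-0.19, edgeR adjusted p = 0.0271). Without high glucose replicate 1, 0 of these 10 were called, and without high glucose replicate 3 none of the 3 rises was.

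The Mrps6 promoter window shown above serves a pair of genes. Slc5a3, which encodes the inositol transporter induced by high osmolarity, starts 14 bases from Mrps6 on the same strand in RefSeq and shares 159 bases of its exons with Mrps6. It was named after its values were seen. Slc5a3 was at 69.1, 70.9 and 61.1 CPM in normal glucose against 100, 103 and 92.7 in high glucose. Its log2 fold change was 0.56 (95% interval 0.41 to 0.71, edgeR adjusted p = 1.6e-04), opposite in sign to that of Mrps6 (-0.44 to -0.12). Mrps6 also shares 305 bases of its exons with Gm49711 on the same strand. Reads in these shared bases could belong to any of the genes there, and how the counts divided them was not tested. In all, 33 members have exons that overlap another annotated gene. Among the 45 that do not, 4 were called lower and 0 higher (14.5% of all tested genes were called lower).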

How the data were processed

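Poly(A) RNA of 6 samples was sequenced. The authors deposited whole-number counts per gene, made per the labels and methods with Trimmomatic, HISAT2 on GRCm38 (mm10) and StringTie, whose versions and strand setting are not given in the sources used here. Low counts favoured even values (4874 entries of 4 against 4716 of 3 and 2810 of 5), so counts were also halved as an alternative, in case mates of a pair were both counted. GENCODE M21 and a table of gene names gave symbols, positions and exon lengths. Counts were filtered (filterByExpr, minimum count 10), scaled by TMM and tested with the quasi-likelihood test of edgeR 4.0.16 in R 4.3.3 over 19015 genes, group as the only term, p-values adjusted by Benjamini-Hochberg and calls made under 0.05. The test was checked on simulated counts drawn independently for each gene and sample. Such counts lack the shifts of whole samples described above, so the check does not bear on them. CPM are TMM-normalized, and standard errors and 95% intervals come from the same test. At these depths 3 counts equal 0.0204 to 0.025 CPM.

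The members, gene lists and roles were chosen with earlier results of these data known, and the sites and origins after the values were seen. Genes were named if called with groups that did not overlap (up to 6 per direction), if among the 3 highest or 3 lowest per exon kilobase, or by role. Other genes were named if called within a list, or as stated. Alternatives were DESeq2 1.42.0, other scalings, filters and fits, a replicate block, a GC and length trend (mgcv 1.9.3) and leaving out each sample. Replicates of a group differed beyond sampling noise (chi-square per degree of freedom 9.76 to 59.9). Promoter sequences are from RefSeq.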

Additional observations from a re-analysis of the deposited data

How the results depend on the processing

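Under the 18 alternative processings that refit the data the median log2 fold change of the members stayed below 0 and moved by less than the spread between replicates, except under library size scaling (-0.17 for all, -0.18 for large and -0.16 for small subunit members). Counts of called members moved more. Library size scaling gave 30 lower (21 large, 9 small), and adjusted p under 0.01 gave 2 lower (2 large, 0 small). Upper quartile normalization, a filter of 1 CPM in 3 samples and DESeq2 each gave 2 small subunit members lower. With the GC and length trend removed, 2 members were higher, both large (Mrpl36 and Mrpl38, named after their values were seen). Leaving out 1 sample gave 2 to 21 members lower and 0 to 2 higher, with 2 to 14 large and 0 to 7 small lower and 0 to 1 higher in each subunit. The highest counts came without normal glucose replicate 2, and the lowest (2 lower) without high glucose replicate 1, while 3 were lower without high glucose replicate 3. The cause was not tested.

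No pairing by replicate number was visible: deviations of same-numbered samples correlated at -0.0248, 0.00377 and 0.0127 over 19015 genes. Shifts of whole samples could hide a shared source, so these values do not show whether same-numbered samples came from 1 isolation. A fit with the replicate block gave 3 members lower (2 large, Mrpl30 and Mrpl45, with Mrps6) and 0 higher, and with the GC and length trend also removed 3 lower (2 large) and 1 higher (1 large). Halving the counts left 6 lower. Of 437 values of 23 named members under the alternatives, 379 kept their sign and their side of the threshold, 24 lost a call, 10 gained one and 24, never called, changed sign. With every member above 1000 counts in each sample, the spread between samples and not depth set the precision.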
